A study of Rattus norvegicus with 45 samples.

Results

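The aryl hydrocarbon (Ah) receptor gene Ahr, its partner gene Arnt and the Cyp1 genes Cyp1a1, Cyp1a2 and Cyp1b1 were followed in rat liver. Every probe set of the Affymetrix Rat Genome 230 2.0 array that the platform annotation assigns to 1 of these 5 genes was taken, which gave 6 of the 31042 probe sets tested and 5 of the 14217 genes with a probe set of their own: 1 each for Cyp1a1 (1370269_at), Cyp1a2 (1387243_at), Cyp1b1 (1368990_at) and Arnt (1369244_at), and 2 for Ahr (1369146_a_at and 1369147_at). No member shared a probe set with another gene.

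The livers came from male Sprague-Dawley rats, adult and 10 weeks old, dosed by gavage. One set of rats received myclobutanil at 225 mg/kg/day and another triadimefon at 175 mg/kg/day, and a set of controls stood beside them. What the controls were given is not stated in the sources used here. RNA was taken after 6 h, 24 h or 14 days, and by their titles the 45 arrays fell into 9 groups of 5. Myclobutanil and triadimefon are fungicides of the triazole class, which act on a fungal P450 enzyme of sterol synthesis. The labels disagree on numbers: 15 livers in the series text and 3 rats per group in the labelling protocol. The titles were followed, no 2 arrays held identical values, and the p-values measure the spread between these arrays, which may be partly technical.

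The Ah receptor waits in the cytoplasm in a complex with chaperones. When a planar aromatic ligand such as a dioxin binds, it moves to the nucleus, pairs with the Arnt protein and binds DNA at sites built around the letters GCGTG. The Cyp1 genes are its best known targets: Cyp1a2 is made in the liver without any inducer, whereas Cyp1a1 is close to silent there until the receptor is activated.

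The Cyp1a1 and Cyp1a2 genes lie next to each other on rat chromosome 8, Cyp1b1 and Ahr on chromosome 6, and Arnt on chromosome 2. The promoter stretches below are shown to describe the DNA just before the start sites, and DNA farther away was not examined. They are the 250 bases before each start site, from RefSeq on the assembly GRCr8, for the 4 of 5 members that matched the promoter table, written 5′ to 3′ along the gene. Capitals mark the core GCGTG or, for the opposite strand, CACGC.
Cyp1a2 (chr8:66978150-66978399, minus strand): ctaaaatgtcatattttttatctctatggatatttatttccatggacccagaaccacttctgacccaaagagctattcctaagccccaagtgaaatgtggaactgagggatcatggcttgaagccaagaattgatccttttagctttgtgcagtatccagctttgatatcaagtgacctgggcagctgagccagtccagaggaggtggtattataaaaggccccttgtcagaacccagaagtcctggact
Cyp1b1 (chr6:21094315-21094564, plus strand): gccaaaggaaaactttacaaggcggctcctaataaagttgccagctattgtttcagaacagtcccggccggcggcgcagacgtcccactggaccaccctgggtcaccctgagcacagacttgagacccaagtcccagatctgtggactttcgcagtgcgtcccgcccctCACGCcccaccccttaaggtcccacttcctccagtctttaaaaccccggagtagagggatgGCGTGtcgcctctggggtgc
Ahr (chr6:57998902-57999151, minus strand): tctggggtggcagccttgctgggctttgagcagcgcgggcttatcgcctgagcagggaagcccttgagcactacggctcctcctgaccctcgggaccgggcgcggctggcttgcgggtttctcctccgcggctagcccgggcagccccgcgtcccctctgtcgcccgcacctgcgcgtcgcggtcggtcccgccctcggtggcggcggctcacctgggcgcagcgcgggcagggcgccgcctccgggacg
Arnt (chr2:185686453-185686702, plus strand): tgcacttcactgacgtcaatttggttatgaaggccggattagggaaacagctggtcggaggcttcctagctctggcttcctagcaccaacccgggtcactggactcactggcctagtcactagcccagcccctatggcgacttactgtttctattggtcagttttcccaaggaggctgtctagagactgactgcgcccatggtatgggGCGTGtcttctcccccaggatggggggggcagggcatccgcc
Within this window Cyp1b1 held 2 cores, at 20 to 16 bases and, on the opposite strand, at 81 to 77 bases before the start site. The nearer one was also the longer motif TNGCGTG, which contains the core. Arnt held 1 core, at 42 to 38 bases. Ahr and Cyp1a2 held 0 on either strand. Of 33469 rat promoters of the same length, 25.9% held the core on at least 1 strand and 4.09% the longer motif, so a match is a description of these letters and not a site. The share of G and C was 75.2% for Ahr, 59.2% for Cyp1b1, 57.6% for Arnt and 44.0% for Cyp1a2, beside a median of 51.2% over those promoters.

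The values are the authors' deposited scores, processed expression values on a log-type scale whose base is not stated, so all differences are in score units and no fold is given. Each array was centred near 0 (array medians -0.012 to 0.033), so a score near or below 0 is at or below the middle of the array. The arrays differed in their upper range, with 99th percentiles of 2.69 to 3.54, which bears on Cyp1a2, the 1 member at that height. Hepatocyte markers were high, with a mean score over the 45 arrays of 4.88 for Alb and 4.48 for Serpina1, and the 5 lymphocyte markers measured lay between -0.19 and 0.11. A lower score in whole liver can come from fewer cells of a type or from less RNA per cell, and these cannot be told apart. A member counts as changed at an adjusted p under 0.05, by limma with Benjamini-Hochberg adjustment over all 31042 probe sets, and errors after ± are SDs with n = 5 unless a standard error (SE) is named.

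Members changed in 2 of the 6 comparisons with controls, and both times the gene was Ahr. With myclobutanil at 6 h, 1 of 6 member probe sets passed the test, where 0.38% of all probe sets did. With triadimefon at 14 days, 1 of 6 passed, where 6.69% of all did. In the other 4 comparisons 0 of 6 passed, beside backgrounds of 0.915% (triadimefon, 6 h), 8.47% (myclobutanil, 24 h), 7.98% (triadimefon, 24 h) and 0.792% (myclobutanil, 14 days). The number of members at an unadjusted p under 0.05 in those 4 was 1, 0, 3 and 3. Of all 31042 probe sets 3534, 6800, 6834 and 4070 reached the same unadjusted p. Over the 6 probe sets the median difference ran from -0.011 (myclobutanil, 24 h) to 0.094 (triadimefon, 24 h and 14 days), and over all probe sets it lay between -0.011 and 0.0081. Members are not replicates of a condition, so these counts describe the list only.

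Ahr encodes the receptor itself. At 6 h its probe set 1369146_a_at had scores of 0.44, 0.68, 0.57, 0.44 and 0.60 on the myclobutanil arrays and 0.23, 0.28, 0.58, 0.32 and 0.46 on the triadimefon arrays, against 0.26, 0.24, 0.27, 0.19 and 0.20 on the control arrays. Every myclobutanil array stood above every control array, with a gap of 0.17, whereas the triadimefon arrays overlapped the controls. Groups without overlap made up 1.63% of all probe sets for myclobutanil at 6 h. The myclobutanil difference was 0.31 (SE 0.075, 95% interval 0.16 to 0.46, adjusted p = 0.04 by limma). The triadimefon difference was 0.14 (SE 0.075, interval -0.01 to 0.29, adjusted p = 0.48). As deposited, no marker of the 9 cell type lists passed the test in either comparison at 6 h.

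The 6 h call for Ahr lay near the threshold. It passed in 2 of 10 repeats that each left out 1 array, those without myclobutanil replicate 1 or 4, and over the 10 repeats the difference ran from 0.28 to 0.34 with adjusted p from 0.032 to 0.13. The array file names also carry an ending, whose meaning the labels do not give. At 6 h 3 myclobutanil, 3 triadimefon and 0 control arrays end in 12. Of the 6 h controls, 1 ends in 21 and 1 in 31, endings that no other array carries. With the ending as a covariate the difference was 0.31 with an adjusted p of 0.057, and over arrays ending in 11 it was 0.34 (SE 0.11) with an adjusted p of 0.39 from 2 myclobutanil and 3 control arrays. After quantile normalization, which gives all arrays 1 distribution, the difference was 0.31 (adjusted p = 0.015), Ahr was the 1 member to pass beside 1.42% of all probe sets, and 9 of 10 repeats passed. On that scale 1 of 7 portal markers was lower and 1 of 8 stellate cell and fibroblast markers was higher with myclobutanil at 6 h. Their part in the Ahr result was not tested.

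At 24 h the same probe set had scores of 0.38, 0.25, 0.46, 0.66 and 0.49 with myclobutanil and 0.40, 0.40, 0.55, 0.59 and 0.94 with triadimefon, against 0.29, 0.40, 0.37, 0.41 and 0.42 in controls. The groups overlapped, and 1 triadimefon array at 0.94 was the highest of all 45. The triadimefon difference was 0.20 (SE 0.075, adjusted p = 0.095). Without triadimefon replicate 5 it was 0.11 (adjusted p = 0.36). After quantile normalization it was 0.22 (adjusted p = 0.051), and 2 of 10 repeats on that scale passed, with adjusted p of 0.025 to 0.24. The myclobutanil difference was 0.07 (adjusted p = 0.64). Control scores were at their highest at this time, 0.38 ± 0.053.

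At 14 days Ahr was higher with triadimefon. The scores were 0.17, 0.09, 0.41, 0.23 and 0.27 with myclobutanil and 0.32, 0.39, 0.54, 0.38 and 0.54 with triadimefon, against 0.11, 0.22, 0.18, 0.20 and 0.10 in controls. Every triadimefon array stood above every control array, with a gap of 0.098, in a comparison where 7.92% of all probe sets had groups without overlap. The triadimefon difference was 0.27 (SE 0.075, 95% interval 0.12 to 0.42, adjusted p = 0.022), and the myclobutanil difference was 0.07 (interval -0.08 to 0.22, adjusted p = 0.72). The triadimefon call passed in 7 of 10 repeats, with adjusted p of 0.021 to 0.064, and was lost without control replicate 5 or triadimefon replicate 3 or 5. After quantile normalization it was 0.26 (adjusted p = 0.017) and passed in 10 of 10. In the same comparison Epcam, a bile duct marker, was higher by 0.54 (adjusted p = 8.9e-08) and Pecam1, an endothelial marker, by 0.15 (adjusted p = 0.0044). Each was the 1 gene of its list to pass, of 4 and 6 measured, beside 6.69% of all probe sets. The summed score of the bile duct list, which includes Epcam, ran from 0.85 to 1.2 with triadimefon, against 0.27 to 0.70 in controls. That of the endothelial list, which includes Pecam1, ran from 7.54 to 7.71, against 6.73 to 7.33 in controls. Neither sum overlapped, though how often sums of other genes stand apart was not counted. The median difference was 0.029 over the 4 bile duct genes and 0.11 over the 6 endothelial genes. An unadjusted p under 0.05 in limma was reached by 1 of 4 and 3 of 6, beside 7362 of all 31042 probe sets. Of the other 7 lists 1 gene passed as deposited, Slc1a2, a transporter found near the central vein (0.13). With quantile normalization, 3 of 7 portal and 1 of 7 hepatocyte markers were lower. Of 8 stellate cell and fibroblast markers 1 was higher there. Whether these cells had a part in the Ahr result was not tested.

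The second Ahr probe set, 1369147_at, did not carry this pattern. Its score was below 0 on 45 of 45 arrays, between -0.27 and -0.04, with group means of -0.20 to -0.13. Its differences from controls ran from -0.06 (myclobutanil, 14 days, adjusted p = 0.30) to 0.04 (triadimefon, 24 h, adjusted p = 0.30), and it passed in none of the 18 comparisons. At the 2 calls of the other probe set its differences were -0.01 (95% interval -0.06 to 0.04) and -0.02 (-0.07 to 0.03). The Ahr calls therefore stand on 1 of 2 probe sets, and the correlation of the 2 over the 45 arrays was -0.04.

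**Figure D1:**
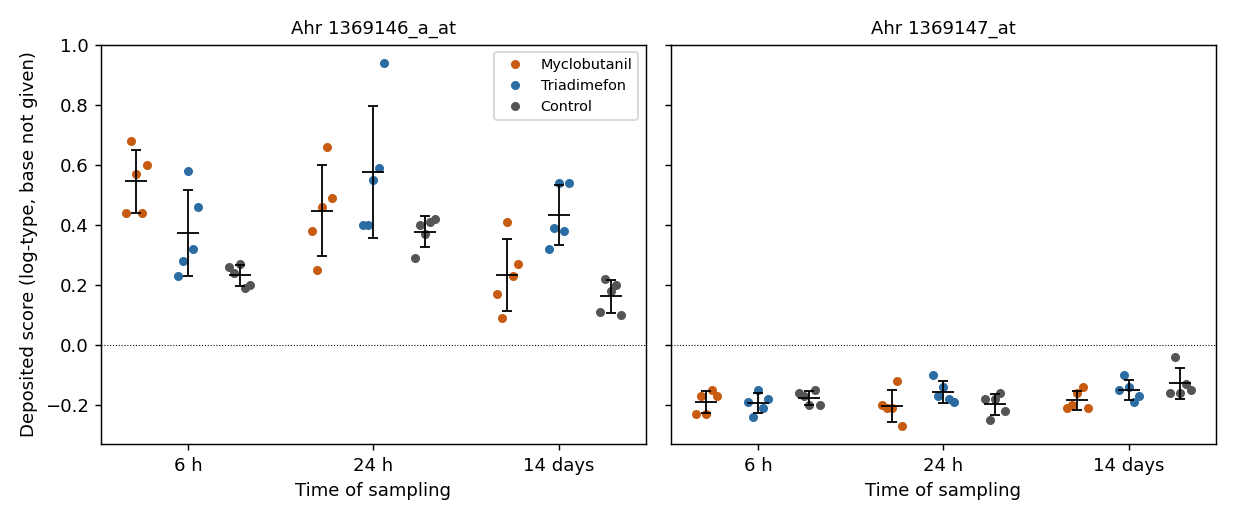
Score of the 2 Ahr probe sets on every array, by time and group, with points for arrays and bars for the mean ± SD of 5 arrays. In 1369146_a_at all 5 myclobutanil arrays at 6 h and all 5 triadimefon arrays at 14 days lie above the controls of their time, whereas 1369147_at stays below 0 throughout.

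Arnt encodes the partner that Ahr needs to bind DNA. Its scores lay between 0.06 and 0.39 over the 45 arrays, and its group means between 0.12 and 0.24. The clearest departure was at 24 h, where the triadimefon arrays gave 0.14, 0.12, 0.11, 0.11 and 0.13 and the myclobutanil arrays 0.22, 0.14, 0.20, 0.14 and 0.10, against 0.10, 0.39, 0.31, 0.14 and 0.16 in controls. The triadimefon arrays were tightly grouped at 0.12 ± 0.012, and the controls, at 0.22 ± 0.13, spread over the widest range of any group for this gene. The triadimefon difference of -0.10 (SE 0.040, interval -0.18 to -0.02) had an adjusted p of 0.12. It passed without control replicate 1 (-0.13, adjusted p = 0.035), and without control replicate 2 it was -0.06 (adjusted p = 0.50). The other 5 differences from controls lay between -0.06 and 0.03.

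Cyp1a1, the gene most used as a sign that the receptor has been activated, stayed near the middle of the arrays. Its score was below 0 on 34 of 45 arrays, and the highest was 0.44. At 6 h it read -0.05, -0.17, -0.10, 0.03 and -0.05 with myclobutanil and -0.08, -0.07, -0.04, 0.26 and 0.19 with triadimefon, against -0.19, -0.13, -0.08, -0.12 and -0.17 in controls. All triadimefon arrays stood above all controls, though by a gap of only 0.0028, in a comparison where 2.54% of all probe sets had groups without overlap.

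At 24 h Cyp1a1 read 0.01, -0.05, -0.17, -0.01 and -0.15 with myclobutanil and -0.05, -0.04, 0.07, 0.06 and -0.04 with triadimefon, against -0.13, -0.20, -0.15, -0.11 and -0.15 in controls. The triadimefon arrays again stood apart, by 0.052, beside a background of 5.61% of all probe sets. At 14 days it read -0.01, -0.11, 0.01, 0.44 and -0.11 with myclobutanil and -0.19, -0.01, 0, 0.12 and 0.21 with triadimefon, against -0.08, -0.15, -0.14, -0.16 and -0.13 in controls, and the groups overlapped. Groups without overlap made up 6.35% of all probe sets for myclobutanil at 24 h and 2.91% at 14 days, and in both comparisons 0 of 6 members were among them.

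The Cyp1a1 difference from controls was positive in 6 of 6 comparisons and passed in none. At 6 h, 24 h and 14 days it was 0.07, 0.08 and 0.18 for myclobutanil (adjusted p of 0.89, 0.58 and 0.25). It was 0.19, 0.14 and 0.16 for triadimefon (adjusted p of 0.22, 0.22 and 0.15), and the upper ends of their 95% intervals reached 0.33. Both compounds of a time share their controls, so the 6 signs are not separate evidence. In a fit of the compared groups alone the triadimefon difference at 24 h passed (0.14, adjusted p = 0.048). Without 1 array, myclobutanil replicate 4, the difference at 14 days was 0.08 (adjusted p = 0.77). At 6 h the 2 highest triadimefon arrays, 0.26 and 0.19, were those whose file names end in 11: over that ending the difference was 0.38 (adjusted p = 0.31). The order of the group means put the 3 control groups lowest, at -0.13 ± 0.031, -0.14 ± 0.043 and -0.15 ± 0.033, and no step between neighbours in that order exceeded the larger SD of the pair.

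Cyp1a2, the member that the untreated liver makes in quantity, had scores of 2.48 to 3.81. At 6 h it read 2.91, 3.27, 2.97, 3.08 and 3.26 with myclobutanil and 3.13, 2.89, 3.19, 3.12 and 3.18 with triadimefon, against 2.77, 3.19, 3.25, 2.90 and 2.74 in controls. At 24 h it read 3.30, 3.03, 3.18, 3.19 and 3.09 with myclobutanil and 3.25, 3.57, 3.66, 3.29 and 3.70 with triadimefon, against 3.15, 3.81, 3.31, 2.90 and 3.16 in controls. Control replicate 2 at 24 h was the highest of all 45 arrays, and it lay on an array whose 99th percentile was also the highest, at 3.54.

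At 14 days Cyp1a2 read 2.68, 3.21, 3.19, 3.35 and 3.02 with myclobutanil and 2.77, 3.31, 3.26, 2.98 and 3.17 with triadimefon, against 3.15, 2.68, 2.48, 2.72 and 3.03 in controls. The groups overlapped at all 3 times. As deposited, no difference passed: 0.13, -0.11 and 0.28 with myclobutanil at 6 h, 24 h and 14 days (adjusted p of 0.90, 0.71 and 0.38), and 0.13, 0.23 and 0.29 with triadimefon (adjusted p of 0.80, 0.34 and 0.19). With each array left out in turn none passed, but the 24 h values moved widely: myclobutanil ran from -0.20 (without control replicate 4) to 0.03 (without control replicate 2), and triadimefon from 0.14 to 0.36 without the same arrays. At 6 h the ranges were 0.07 to 0.20 and 0.08 to 0.21, and at 14 days 0.19 to 0.38 and 0.21 to 0.38.

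The result for Cyp1a2 depended on the scaling of the arrays. Quantile normalization reduced its within-group SD to 0.14, against 0.23 as deposited, while the SD of the other 5 probe sets moved by at most 0.01. The 24 h scores then became 3.32, 3.19, 3.15, 3.18 and 3.29 with myclobutanil and 3.48, 3.51, 3.69, 3.45 and 3.54 with triadimefon, against 3.24, 3.26, 3.26, 3.02 and 3.05 in controls. All triadimefon arrays then stood above all arrays of both other groups. The share of all probe sets without overlap was counted only as deposited, where it was 5.61% against controls. The triadimefon difference was 0.37 (SE 0.082, 95% interval 0.20 to 0.54, adjusted p = 0.0024) where 9.03% of all probe sets passed, and it passed in 10 of 10 repeats. At 14 days it was 0.28 (adjusted p = 0.026), beside a background of 9.15% that 2 of 6 members joined, and passed in 5 of 10 repeats (adjusted p of 0.0082 to 0.11). The myclobutanil differences on that scale were 0.18, 0.06 and 0.13 at 6 h, 24 h and 14 days (adjusted p of 0.38, 0.72 and 0.52). Backgrounds after the same scaling were 2.67% for triadimefon at 6 h and 10.8% and 1.11% for myclobutanil at 24 h and 14 days, with 0 of 6 members passing in each. Which scaling is closer to the RNA content of these livers was not tested.

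**Figure D2:**
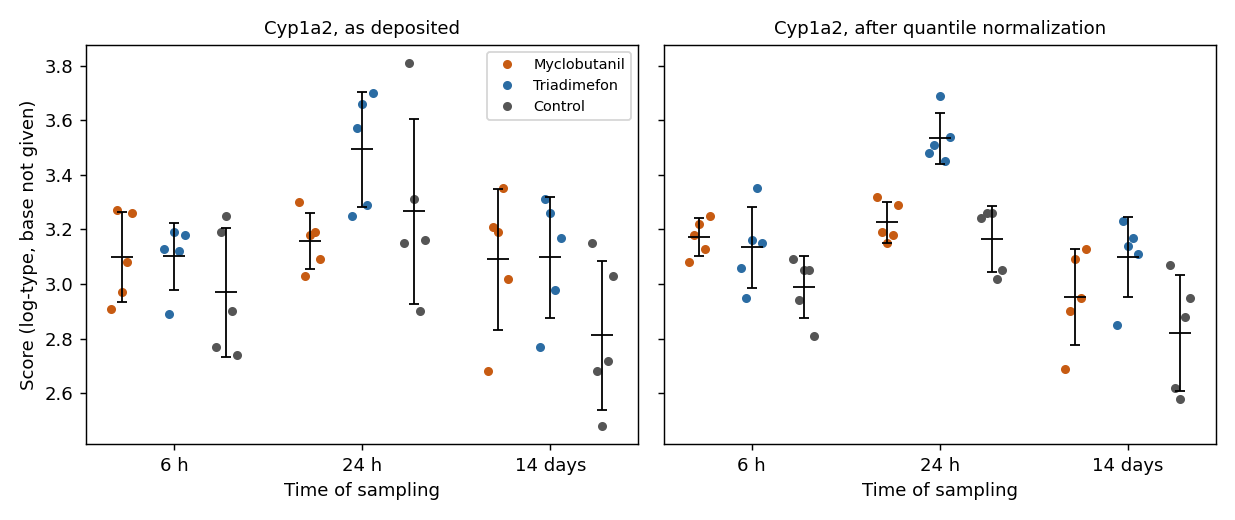
Cyp1a2 on every array, as deposited and after quantile normalization, by time and group, with points for arrays and bars for the mean ± SD of 5 arrays. The 24 h control array at 3.81 as deposited lies at 3.26 after scaling, and the triadimefon arrays at 24 h then lie above the other arrays of that time.

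Cyp1b1, a P450 made mainly outside the liver, was flat. Its scores lay between 0.01 and 0.24, its group means between 0.12 and 0.18, and its within-group SD was 0.045. The differences from controls were -0.04, -0.02 and -0.01 with myclobutanil and -0.04, -0.01 and -0.02 with triadimefon at 6 h, 24 h and 14 days, with adjusted p of 0.68 to 0.92. The 95% intervals of all 6 lay between -0.10 and 0.05, so a change of more than 0.10 in either direction was outside each of them.

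**Figure D3:**
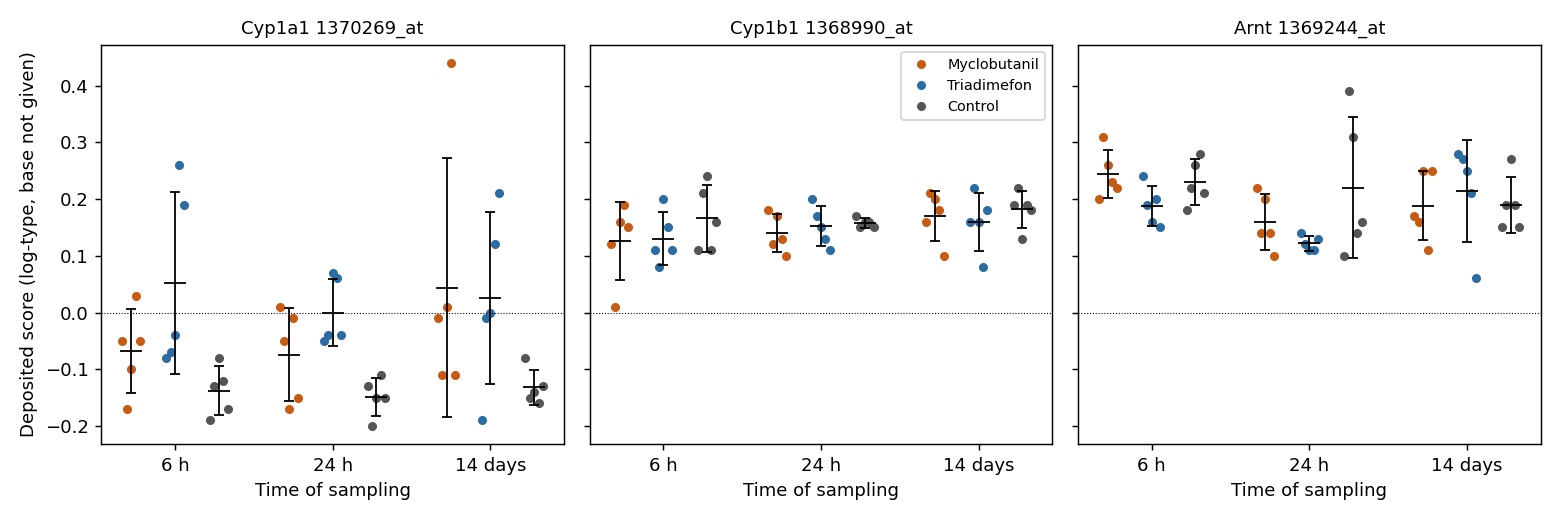
Cyp1a1, Cyp1b1 and Arnt on every array, by time and group, with points for arrays and bars for the mean ± SD of 5 arrays. Cyp1a1 controls sit between -0.20 and -0.08 at all times while single treated arrays reach 0.26, 0.21 and 0.44, and the triadimefon arrays of Arnt at 24 h lie between 0.11 and 0.14.

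**Figure D4:**
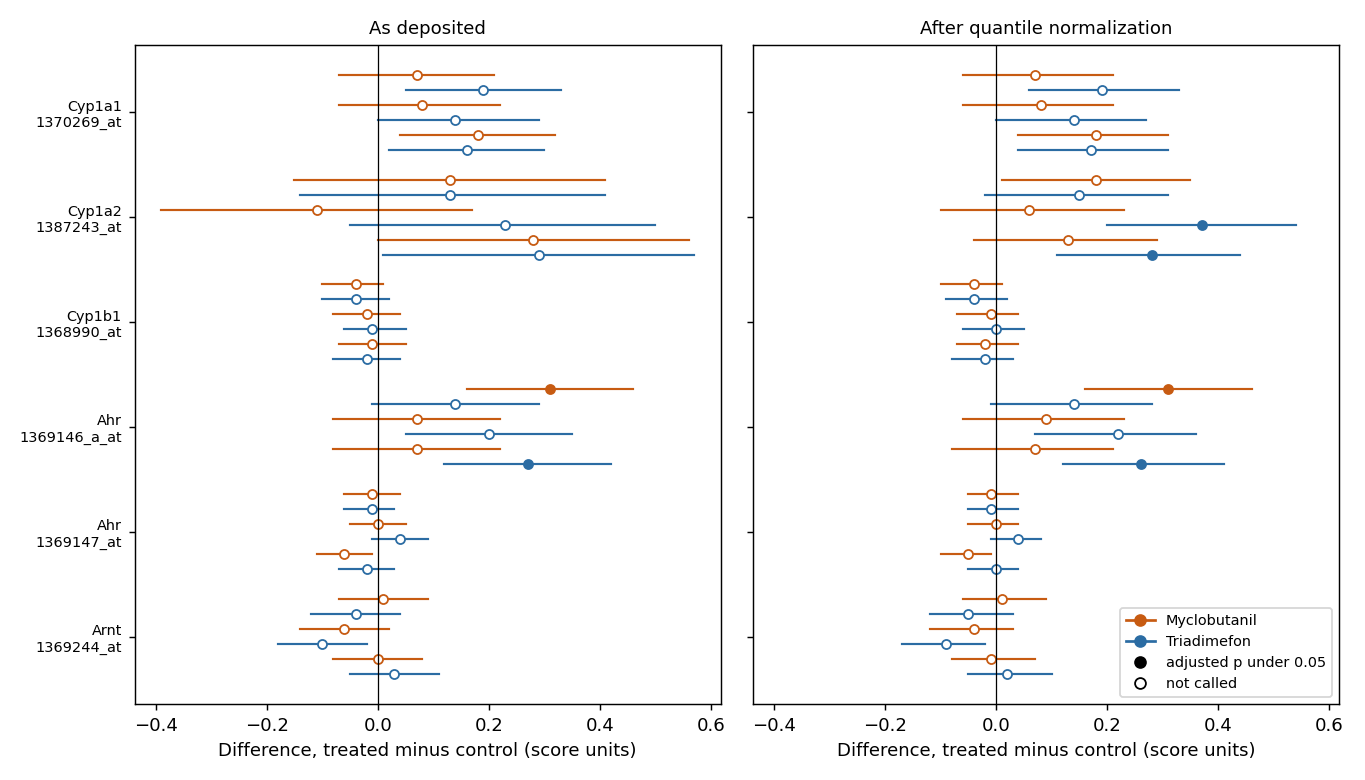
Difference of each compound from the controls of its time for the 6 member probe sets, in score units, as deposited on the left and after quantile normalization on the right, with 95% intervals from limma. For each probe set the lines run from myclobutanil to triadimefon within 6 h, 24 h and 14 days, and filled points have an adjusted p under 0.05: Ahr 1369146_a_at with myclobutanil at 6 h and triadimefon at 14 days on both sides, and Cyp1a2 with triadimefon at 24 h and 14 days on the right only.

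The members stood in the following order by level: Cyp1a2 far above the rest at a mean score of 3.12, then Ahr 1369146_a_at at 0.38, Arnt at 0.20, Cyp1b1 at 0.15, Cyp1a1 at -0.05 and Ahr 1369147_at at -0.18. Scores of different probe sets also differ with probe affinity, so this order is of scores and not of RNA amounts. Between groups the means of Ahr 1369146_a_at ran from 0.57 ± 0.22 (triadimefon, 24 h) through 0.55 ± 0.11 (myclobutanil, 6 h), 0.45 ± 0.15 (myclobutanil, 24 h) and 0.43 ± 0.10 (triadimefon, 14 days) to 0.16 ± 0.055 (controls, 14 days). In that order 1 step between neighbours exceeded the larger SD of the pair, the 0.072 between the controls of 6 h and of 14 days. For the other 5 probe sets no step did.

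The compounds were given at different doses, so the comparison is of these 2 treatments and not of equal doses. As deposited 0 of 6 members differed between triadimefon and myclobutanil at 6 h, 24 h or 14 days, where 0.251%, 1.06% and 0.332% of all probe sets passed in limma. At an unadjusted p under 0.05 there was 1 member at each time, beside 2307, 3340 and 3849 of all 31042 probe sets. Ahr 1369146_a_at was lower with triadimefon at 6 h by 0.17 on the score scale (difference -0.17, 95% interval -0.32 to -0.02, adjusted p = 0.56), and the within-ending differences were -0.17 for 11 and -0.18 for 12. At 14 days it differed by 0.20 (0.05 to 0.35, adjusted p = 0.26). Cyp1a2 at 24 h differed by 0.33 (0.06 to 0.61, adjusted p = 0.31), and after quantile normalization by 0.31 (0.14 to 0.48, adjusted p = 0.023), when it was the 1 of 6 members to pass beside 3.60% of all probe sets; 6 of 10 repeats passed.

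The effect of a compound was also compared between times, as the difference of 2 differences. No member passed in any of the 6 comparisons. The backgrounds were 1.75%, 4.56% and 0.335% for myclobutanil (24 h against 6 h, 14 days against 24 h and 14 days against 6 h), with 1, 0 and 1 members at an unadjusted p under 0.05, and 3.13%, 12.7% and 1.96% for triadimefon, with 0, 1 and 0. Of all 31042 probe sets 4047, 6661 and 3308 reached that unadjusted p for myclobutanil and 5608, 9350 and 4440 for triadimefon. For Ahr 1369146_a_at the myclobutanil effect at 24 h was smaller than that at 6 h by a margin that missed the threshold (-0.24, 95% interval -0.46 to -0.03, adjusted p = 0.29), and the same held at 14 days (-0.24, -0.45 to -0.03, adjusted p = 0.39). That the call was made at 1 time for each compound is thus not shown to be a difference between times.

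The controls themselves moved between times. Cyp1a2 averaged 2.81 ± 0.27 at 14 days and 3.27 ± 0.34 at 24 h, a difference of -0.46 (SE 0.14, adjusted p = 0.081) that became -0.34 (adjusted p = 0.049) after quantile normalization. Ahr 1369146_a_at averaged 0.16 ± 0.055 at 14 days and 0.38 ± 0.053 at 24 h (difference -0.22, adjusted p = 0.12). As deposited 0 of 6 members passed in the 3 comparisons of controls, where 2.78% (24 h against 6 h), 3.33% (14 days against 6 h) and 0.238% (14 days against 24 h) of all probe sets did, with 1, 0 and 3 members at an unadjusted p under 0.05. Of all 31042 probe sets 4316, 5591 and 6105 reached that unadjusted p. After quantile normalization Cyp1a2 was the 1 member to pass at 14 days against 24 h, beside 0.367%. The controls of different times were separate arrays, and whether time of day or age moved with them is not given in the sources used here.

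Around the receptor, 5 lists of pathway genes were counted, with 1 probe set for each gene. Of the receptor complex, 2 of 4 were measured on a probe set of their own: Hsp90ab1 and Ptges3, the chaperones that hold the receptor in the cytoplasm. Hsp90ab1 has 2 probe sets, and only that of higher mean was followed. Neither gene passed as deposited in any comparison with controls. Both genes had an unadjusted p under 0.05 in limma with triadimefon at 6 h and with myclobutanil at 14 days. So did 3534 and 4070 of all 31042 probe sets. After quantile normalization both genes were higher with triadimefon at 6 h and 24 h and with myclobutanil at 24 h. In these comparisons 2.67%, 9.03% and 10.8% of all probe sets passed on that scale. With triadimefon at 6 h Hsp90ab1 was higher by 0.33 (adjusted p = 3.8e-06) and Ptges3 by 0.28 (adjusted p = 9.3e-09). The differences there as deposited were 0.31 (adjusted p = 0.28) and 0.28 (adjusted p = 0.094).

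Of the repressors and other genes of the Ah receptor battery, 6 of 9 were measured, and 1 rose, with myclobutanil at 24 h, where 8.47% of all probe sets passed. Nqo1, a quinone reductase that both the Ah receptor and Nrf2 are known to switch on, gave 2.32, 2.29, 2.38, 1.90 and 2.20 with myclobutanil at 24 h and 1.98, 2.08, 2.24, 1.91 and 1.96 with triadimefon, against 1.54, 1.71, 1.26, 1.48 and 1.18 in controls. Neither compound's arrays overlapped the controls, as for 6.35% of all probe sets with myclobutanil and 5.61% with triadimefon. The difference was 0.78 for myclobutanil (SE 0.20, adjusted p = 0.0086, 10 of 10 repeats passing) and 0.60 for triadimefon (adjusted p = 0.051; 0.70 and 0.016 after quantile normalization). At 6 h the differences of Nqo1 were -0.26 and 0.05, and at 14 days 0.50 and 0.46 (adjusted p of 0.25 and 0.15). Ahrr, the repressor that the receptor induces against itself, had mean scores of -0.31 to -0.26 in all groups. Tiparp, another direct target that shuts the receptor down, differed from controls by -0.11 to 0.06, and Aldh3a1, an aldehyde dehydrogenase of the battery, by -0.03 to 0.01. Nfe2l2, which encodes Nrf2, differed by 0.19 with myclobutanil at 24 h (adjusted p = 0.28).

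Of the other partners and relatives of Arnt, 9 of 9 were measured. Of these 1 passed with myclobutanil at 24 h, 1 with myclobutanil at 14 days and 1 with triadimefon at 14 days, beside 8.47%, 0.792% and 6.69% of all probe sets. Hif1a, the hypoxia factor that also pairs with Arnt, read 1.44, 1.38, 1.58, 1.5 and 1.40 with myclobutanil at 24 h, against 1.52, 1.81, 1.61, 1.53 and 1.67 in controls, a difference of -0.17 (adjusted p = 0.03). In this comparison 6 of 6 Kupffer cell, 2 of 6 endothelial and 3 of 7 portal markers were also lower, and their part in the result was not tested. The Hif1a call passed in 4 of 10 repeats, failing without control replicate 2, 3 or 5 or myclobutanil replicate 1, 2 or 5, and after quantile normalization it was -0.10 (adjusted p = 0.068). Sim2, a relative known from the nervous system, lay far below the middle of the arrays at a mean score of -0.52, and at 14 days its difference was 0.13 for myclobutanil (adjusted p = 0.0099) and 0.11 for triadimefon (adjusted p = 0.011). Both Sim2 differences passed in 10 of 10 repeats, at a level where a probe set may report background.

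Of the coactivators and corepressors, 7 of 8 were measured and 0 passed as deposited in limma in any comparison with controls, with at most 3 at an unadjusted p under 0.05 (myclobutanil, 24 h) and 1 passing after quantile normalization (lower, myclobutanil, 6 h). The first stands beside 6800 of all 31042 probe sets, and the second beside 1.42%.

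The list that supplies P450 enzymes with electrons was measured in full, 4 of 4. Por, the reductase on which every microsomal P450 including the Cyp1 enzymes depends, was higher with both compounds at 6 h and 24 h. At 6 h it read 2.22, 2.17, 2.06, 2.89 and 2.40 with myclobutanil and 2.15, 2.33, 2.47, 2.35 and 2.25 with triadimefon, against 1.27, 1.65, 2, 1.72 and 1.61 in controls. At 24 h it read 1.92, 2.03, 2.02, 2.10 and 2.11 with myclobutanil and 1.79, 1.89, 2.15, 1.97 and 3.06 with triadimefon, against 1.11, 1.38, 1.21, 1.21 and 1.33 in controls. No treated array overlapped its controls at either time; at 6 h 1.63% of all probe sets had groups without overlap for myclobutanil and 2.54% for triadimefon, and at 24 h 6.35% and 5.61%.

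The Por difference at 6 h was 0.70 for myclobutanil (adjusted p = 0.048) and 0.66 for triadimefon (adjusted p = 0.042). At 24 h it was 0.79 for myclobutanil (adjusted p = 0.0018) and 0.92 for triadimefon (adjusted p = 0.00047). Beside these, 0.38% and 0.915% of all probe sets passed for myclobutanil and triadimefon at 6 h, and 8.47% and 7.98% at 24 h. The 24 h calls passed in 10 of 10 repeats, but with only the compared groups in the fit the triadimefon call was lost (adjusted p = 0.053). The 6 h calls passed in 2 of 10 repeats for myclobutanil (without control replicate 3 or myclobutanil replicate 3) and in 1 of 10 for triadimefon (without control replicate 3), with adjusted p of up to 0.18 and 0.16, and neither passed with the file-name ending as a covariate. At 14 days Por differed by 0.35 and 0.45 (adjusted p of 0.36 and 0.097). Cyb5a, cytochrome b5, passed in none as deposited, and after quantile normalization was higher at 24 h by 0.35 for myclobutanil (adjusted p = 1.9e-09) and by 0.30 for triadimefon (adjusted p = 1.1e-07).

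**Figure D5:**
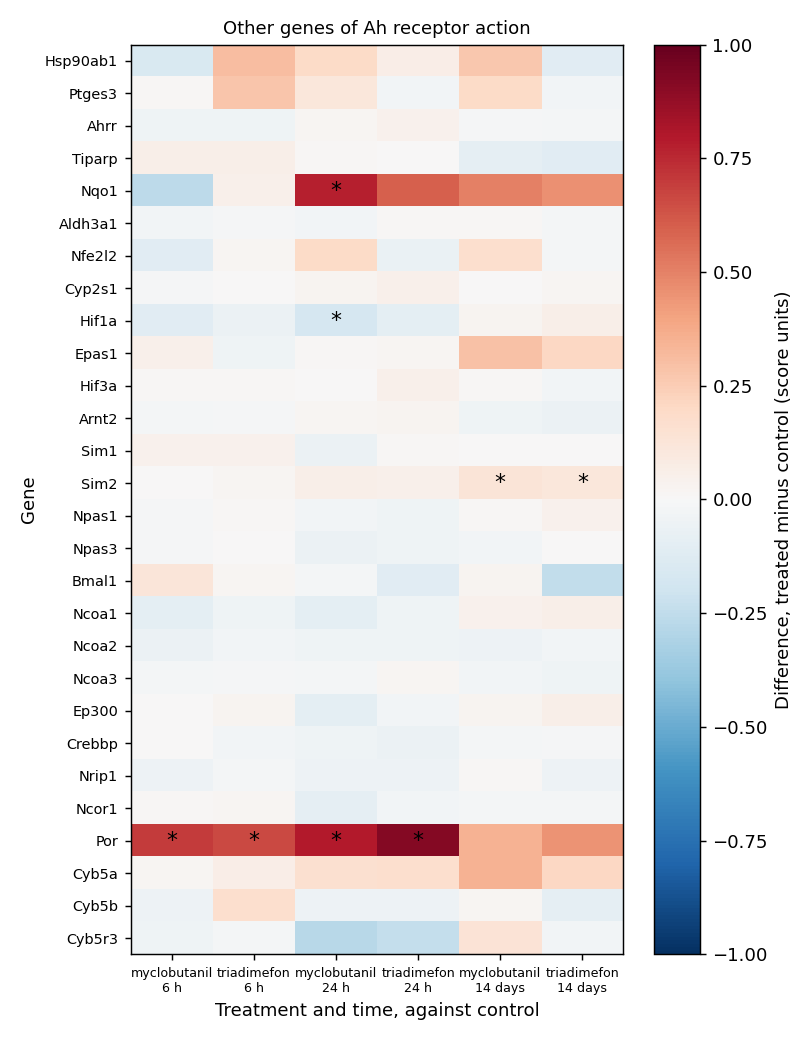
Difference from the controls of the same time for the pathway genes, in score units as deposited, with columns for myclobutanil and triadimefon at 6 h, 24 h and 14 days and a star where the adjusted p is under 0.05. Por carries stars at 6 h and 24 h with both compounds, Nqo1 and Hif1a with myclobutanil at 24 h, and Sim2 with both compounds at 14 days.

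Cell type markers moved most with myclobutanil at 24 h, a comparison in which no member passed. In it 8.47% of all probe sets passed, and 946 of those 2628 were higher. There 6 of 6 measured Kupffer cell and macrophage markers fell, among them Clec4f by 0.79 on the score scale (difference -0.79, adjusted p = 2.9e-05), and the summed score of that list ran from 5.77 to 7.69 with myclobutanil, against 7.94 to 11.43 in controls. In the same comparison 3 of 7 markers of hepatocytes near the portal tract, 1 of 7 near the central vein (Glul), 2 of 6 endothelial markers and 1 of 8 stellate cell and fibroblast markers fell, and none of the 7 general hepatocyte markers, 4 bile duct, 5 lymphocyte or 4 erythroid markers passed. Nqo1 passed in this comparison too, and the part of these cell types in its result was not tested. With triadimefon at 24 h, where Cyp1a2 passed after quantile normalization, 0 of 6 Kupffer cell markers passed. Of all probe sets 7.98% passed in that comparison as deposited and 9.03% after quantile normalization. As deposited Glul (difference -0.50, adjusted p = 0.0061) and the stellate cell marker Pdgfrb (-0.14, adjusted p = 0.021) were lower there, and Tbx3, of the central vein list, was higher (0.09, adjusted p = 0.035). After quantile normalization these 3 passed as well as Hnf4a (0.19) and Cps1 (-0.16), both hepatocyte markers, and Ass1 (-0.29), of the portal list. Cyp1a2 is itself known to be stronger near the central vein. As deposited the summed score of the central vein list ran from 7.76 to 9.46 with triadimefon, against 8.31 to 10.23 in controls. These ranges overlapped, and sums after quantile normalization were not taken. The part of these markers in the result was not tested.

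The genes whose scores followed each member most closely over the 45 arrays were named from 14216 others, as a description that shares arrays, scaling and group differences. For Ahr they were Gadd45b (Pearson's r = 0.71), Ptdss2 (0.70) and Rell1 (0.69). For Arnt they were Met (0.65), Trim41 (0.65) and Tmem167b (0.64). For Cyp1a1 they were Egln3 (0.72), Tsx (0.58) and Atp6v0e1 (0.55). For Cyp1a2 they were Dcaf11, Ctsl and Abcb11 (0.74 each), and after quantile normalization their r fell to between 0.60 and 0.65. Their places in the order of r were then 4, 30 and 26. For Cyp1b1 they were Krt86 (0.79), Pik3r3 (0.72) and Meg3 (0.71). Under quantile normalization the genes named for the members other than Cyp1a2 held places from 1 (Egln3, Krt86 and Tmem167b) to 11 (Rell1 and Pik3r3). Among the members themselves the closest pair was Ahr 1369146_a_at with Cyp1a2, at 0.52 as deposited and 0.65 after quantile normalization, and the pair Cyp1a1 with Cyp1a2 stood at 0.26 on both scales.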

How the data were processed

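RNA from rat liver was hybridised to 45 Affymetrix Rat Genome 230 2.0 arrays, each liver to its own array per the labels' protocols, whose animal numbers do not add up to the arrays deposited. The deposited table gives 1 score per probe set and array; how the authors summarised and normalized these scores is not given in the sources used here. The scores were used as deposited, since their log base is unknown. Of 31099 probe sets, 57 Affymetrix controls were left out. Genes came from the platform annotation, where 20826 tested probe sets have 1 gene, 436 several and 9780 none; a probe set with several was not named. Of those with 1 gene, 20758 matched the RefSeq table of GRCr8, which changed 0 symbols. The fit in limma 3.58.1 (R 4.3.3) had 1 mean per group over all arrays and was tested on simulated data. The number of arrays limits the precision.

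All member probe sets are named. Of the pathway lists, genes changed in at least 1 comparison with control are named, at most 4 per list, each gene by its probe set of highest mean; for each member the 3 genes of highest Pearson's r over the arrays are named. Single list members outside that rule were picked after their values were seen. The members and lists were chosen with earlier results of these data known. Alternatives were quantile normalization, a common array median, a filter on the mean score, a fit of only the compared groups, robust moderation with a variance trend, weights for arrays, a replicate block, the file-name ending as a covariate or fixed at 11 or 12, a threshold of 0.01, and leaving out each array. Quantile normalization with each array left out was added after seeing the data.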

Additional observations from a re-analysis of the deposited data

Results flagged for a closer look

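In 3 of the 54 sets of 5 arrays (6 probe sets in 9 groups) 1 array lay far from the others of its group, where chance alone marks about 1 group in 20. Cyp1a1 was at 0.44 on myclobutanil replicate 4 at 14 days, the next highest array of that group being at 0.01. Cyp1a2 was at 2.89 on triadimefon replicate 2 at 6 h, with the next lowest at 3.12. Ahr 1369147_at was at -0.04 on control replicate 2 at 14 days, with the next highest at -0.13. No cause was tested.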

How the results depend on the processing

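Of 54 member differences followed over 1122 alternatives, 1099 kept their side of the threshold. A further 6 passed only under the alternative and 17 passed only as deposited. None that passed turned its sign, and 49 that never passed did. Only the 2 Ahr calls had passed as deposited, so all 17 losses were theirs. The 1099 are mainly differences that passed neither as deposited nor under the alternative. After quantile normalization the number of members changed was 1 for triadimefon at 24 h, 2 for triadimefon at 14 days, 1 for triadimefon against myclobutanil at 24 h and 1 for controls at 14 days against 24 h. With only the compared groups in the fit it was 1 for triadimefon at 24 h. For myclobutanil at 6 h it was 0 with a variance trend and robust moderation, with the file-name ending as a covariate, with ending 11 only and at an adjusted p under 0.01, and for triadimefon at 14 days it was 0 at that stricter threshold. With each array left out in turn the count ran from 0 to 1 for myclobutanil at 6 h, triadimefon at 24 h, triadimefon at 14 days, controls at 14 days against 24 h and the triadimefon effect at 14 days against 24 h. The last passed without triadimefon replicate 5 at 14 days, the controls without control replicate 4 at 24 h. The causes were not tested. Of 158 alternatives for the 8 called differences of Por, Nqo1, Hif1a and Sim2, 121 kept the call and 37 lost it.

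The replicate numbers were not taken to pair the samples. Same-numbered arrays of different groups had residual correlations of 0.032 on average (-0.46 to 0.58), 60 of 180 over 0.1. Arrays of different numbers had -0.0075 on average (-0.46 to 0.5), 196 of 720 over 0.1. Whether the numbers pair the samples was not tested. With the numbers as a replicate block the count of members changed stayed at 1 for myclobutanil at 6 h and 1 for triadimefon at 14 days, and changed in no other comparison.

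Over all probe sets quantile normalization raised the number changed to 441 against 118 as deposited for myclobutanil at 6 h, to 828 against 284 for triadimefon at 6 h, and to 234, 1117 and 292 against 78, 328 and 103 for triadimefon against myclobutanil at 6 h, 24 h and 14 days. With ending 11 only the counts were 20, 9 and 8 for myclobutanil, triadimefon and their comparison at 6 h and 35 for their comparison at 14 days, with fewer arrays; with ending 12 only, 26 for the comparison at 6 h. Members with scores near 0 lie where a small signal may not be seen.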
